A study of Drosophila melanogaster with 9 samples.

Results

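RNA of first instar male larvae of Drosophila melanogaster was compared between 3 roX-KO libraries and 3 wild-type libraries, which are 6 of the 9 libraries of the series. The roX-KO males carry the alleles roX1[ex6] and roX2[9-4] and so are mutant for both X-linked roX genes. The wild-type males are labelled as wild type with no strain, and the labels name no treatment and no shared allele for either group. Effects of the roX alleles and of strain background therefore cannot be told apart here. The libraries were chosen by title, and the question the series puts is what the roX RNAs do in transcription. The comparison is described here across the genome, by chromosome, gene level and gene length, with weight on genes that no preset list of a pathway, complex or family matched by symbol, called unlisted here. Such matching misses members with other symbols, among them blw, NdufV3 and ox of oxidative phosphorylation, Sem1 of the proteasome and Tb of the cuticle. It also missed Peritrophin-A and Peritrophin-15a of the chitin matrix of the gut lining, and no list covers genes near centromeres.

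In male flies the MSL complex, made of the MSL proteins, the MOF acetyltransferase and the MLE helicase, assembles with roX1 or roX2 RNA. It spreads over active genes of the single X and acetylates histone H4 there, which raises their output toward that of the paired female X. The roX RNAs are thus the noncoding part of the dosage compensation machinery, and autosomal genes lie mostly outside its known targets.

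The knockout showed in every library. roX1 (FBgn0019661, X 3857230-3862697, minus strand, dm6) had 3.25, 2.82 and 3.47 CPM (counts per 1e6 counts in genes after TMM scaling) in roX-KO males, against 333, 305 and 368 CPM in wild-type males. That is 0.952% of the wild-type level and a log2 fold change of -6.72 ± 0.12 (SE; adjusted p = 2.49e-12, edgeR's quasi-likelihood test with Benjamini-Hochberg adjustment). roX2 (FBgn0019660, X 11579065-11580432, plus strand) had 0 counts in each roX-KO library and 150, 181 and 162 counts in wild-type males, which is at least 191-fold lower when the roX-KO group as a whole is set at a floor of 3 counts. Both genes matched the labels in all 6 libraries.

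Counts in genes came to 17318293 to 17942186 in roX-KO males, against 17743217 to 17845312 in wild-type males, and replicates correlated at Pearson's r of at least 0.991 over genes. The labels do not state whether replicates are independent cultures or animals, and p-values therefore cover only the spread among these libraries. Wild-type male 2 stood apart from the other wild-type males in the measures of gene length below, and the main results by length are given with and without it. The 6 Y-linked spermatocyte genes examined were at 0 in all libraries, and salivary glue genes of older larvae summed to 3 to 14 counts in roX-KO males, against 21 in each wild-type library. Of 4 larval tissue markers, summed counts were 148675 to 161835 in roX-KO males, against 230093 to 273701 in wild-type males: Mhc of body wall muscle fell (log2 fold change -0.92), betaTry of the gut fell (-1.44), nSyb of neurons rose (0.87) and Fbp2 of the fat body was too low to test. Of 4 genes of pupal and adult cuticle, summed counts were 152 to 169 in roX-KO males, against 649 to 745 in wild-type males. Most of these counts came from Edg91 (log2 fold change -2.19) and Edg78E (-3.26), which fell. Acp65Aa, with 0 to 5 counts a library, and Edg84A, with 1 to 6, were too low to test. The part of such tissue or stage differences in the results below was not tested. In RNA of whole larvae, fewer cells of a type and less RNA per cell cannot be told apart.

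Of 11172 genes tested, 3505 were higher in roX-KO males (31.4% of genes tested) and 3588 were lower (32.1%), so 63.5% passed the threshold of an adjusted p under 0.05 in either direction. These shares are the background against which each group of genes below is read. Changes were mostly small: 580 genes were higher by at least 2-fold (5.19%) and 979 were lower by at least 2-fold (8.76%). In 7759 genes (69.5%) the libraries of the groups did not overlap. The balance depends on the scaling. With total counts in place of trimmed-mean (TMM) factors, 5467 genes were higher and 2395 lower, so that 69.5% of calls pointed up rather than 49.4%. On the 4 large arms 75.6% of calls were then upward against 56.0%, and the median log2 fold change of all genes was 0.25 rather than 0.02.

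The X and the 4 large autosomal arms moved apart. On the X, 1031 of 1751 genes were lower in roX-KO males and 233 were higher, with a median log2 fold change of -0.41. On the large arms 3212 of 9286 genes were higher and 2523 lower, with a median of 0.08. The genes of each group spread alike around their median, since the middle 50% of genes covered a width of 0.76 log2 units on the X and 0.72 on the arms. The median deviation of X genes from the mean of the 6 libraries, minus that of arm genes, averaged -0.24 ± 0.02 in roX-KO males, against 0.24 ± 0.01 in wild-type males (SD, n = 3 each; log2 CPM). This X shift of -0.47 put the X 28.0% lower relative to the arms. Its exact two-sided permutation p was 0.1, the smallest that 3 libraries against 3 allow, and the groups did not overlap.

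**Figure D1:**
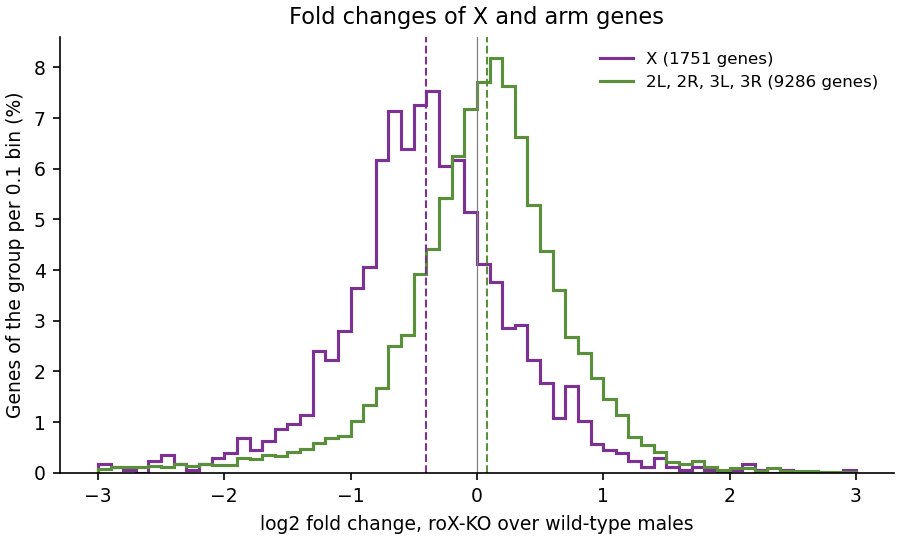
Distribution of log2 fold changes (roX-KO over wild-type males, x axis) for 1751 X genes and 9286 genes of the large arms (2L, 2R, 3L, 3R), as the percentage of each group per bin of 0.1 (y axis); dashed lines mark the medians, -0.41 on the X and 0.08 on the arms. The X curve is displaced to the left with about the same width, and bins beyond 3 in either direction are not drawn.

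Levels per kilobase of exon gave the same picture without a fold change. The median X gene stood at 6.74, 6.83 and 6.57 CPM per kilobase in roX-KO males, against 9.29, 8.73 and 9.12 in wild-type males. The median arm gene stood at 10.9 ± 0.04 CPM per kilobase in roX-KO males, against 10.9 ± 0.12 in wild-type males (SD, n = 3 each; exact permutation p = 0.8, two-sided). The ratio of the X median to the arm median was 0.618 ± 0.014 in roX-KO males, against 0.831 ± 0.019 in wild-type males (exact permutation p = 0.1). That comparison of arm genes depends on TMM scaling, since under total counts their median log2 fold change was 0.31. The X held 10.1% of all counts in roX-KO males, against 12.5% in wild-type males. The arms held 80.7% of counts in roX-KO males, against 74.8% in wild-type males. The mitochondrial genome held 7.13% of counts in roX-KO males, against 10.7% in wild-type males.

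The lower X was seen along its whole length. In 1 Mb windows with at least 20 tested genes, the median log2 fold change was below 0 in 22 of 22 X windows, between -0.52 and -0.21. On the arms it was above 0 in 77 of 94 windows and below 0 in 17, between -0.15 and 0.37. Under total counts 21 of the X windows stayed below 0 and all 94 arm windows lay above 0, while with factors taken from the arms alone 53 arm windows lay above 0 and 41 below. The 4 arms had medians of 0.09 (2L), 0.09 (2R), 0.06 (3L) and 0.09 (3R). Falls of at least 2-fold took 10.3% of genes on 3L and 5.23% on 2L.

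Leaving out genes of the preset lists changed these shares little. Outside the lists 3185 of 9946 genes were higher in roX-KO males (32.0%) and 3036 were lower (30.5%), with a median log2 fold change of 0.04. X genes outside the lists were higher in 210 and lower in 929 of 1590 cases, with a median of -0.40. Arm genes outside the lists were higher in 2921 and lower in 2091 of 8250 cases, with a median of 0.10. The 1226 listed genes leaned downward, with 320 higher, 552 lower and a median of -0.17. No p-value is attached to this contrast, since the lists were drawn up with results of these data known.

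Gene level was examined in quartiles of the genes tested, by mean log2 CPM (limits 2.94, 4.50 and 5.89). The X was lower in every quartile: its median log2 fold change was -0.32 in the lowest quartile, then -0.38, -0.41 and -0.49 in the highest. In the highest quartile 260 of 368 X genes were lower in roX-KO males and 39 were higher, and in the lowest 194 of 452 were lower and 70 higher. Arm genes followed the same order, with medians of 0.18, 0.11, 0.09 and -0.02. The X shift relative to arm genes of the same quartile was therefore nearly level, at -0.46, -0.49, -0.50 and -0.47 (exact two-sided permutation p = 0.1 in each quartile). Between the highest and the lowest quartile it differed by -0.01 (exact permutation p = 0.5).

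That evenness holds for quartiles by CPM. With quartiles by CPM per kilobase of exon the X shift was -0.37, -0.50, -0.58 and -0.55, and the highest quartile differed from the lowest by -0.18 (exact two-sided permutation p = 0.1). With no filter on low counts the shift in the lowest quartile was -0.02, and the highest quartile differed from the lowest by -0.46. On the arms the deviation of the highest minus the lowest quartile was -0.18 in roX-KO relative to wild-type males (exact permutation p = 0.1). This arm difference was -0.46 with levels per kilobase and -0.01 with no filter on low counts. In the highest arm quartile 686 genes were higher and 818 lower, a balance that turned to 1224 higher and 483 lower under total counts. Large changes were commonest at low level: 286 and 322 arm genes of the lowest quartile were higher and lower by at least 2-fold, against 40 and 109 in the highest.

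**Figure D2:**
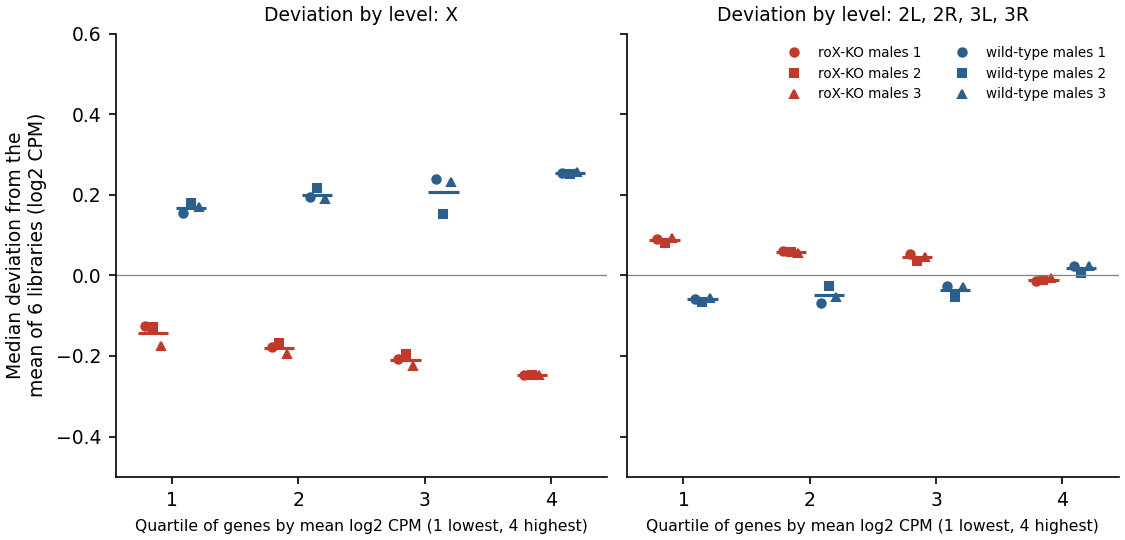
Median deviation of each library from the mean of the 6 male libraries (log2 CPM, y axis) in quartiles of genes by mean log2 CPM (x axis), for the X (left) and the large arms (right); each point is 1 library and each bar the mean of 3. On the X all roX-KO libraries lie below all wild-type libraries in every quartile, and on the arms the groups draw together in the highest quartile and change sides there.

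The most abundant transcripts took a smaller share of counts in roX-KO males. The 10 genes with most counts took 11.7% ± 1.0 of counts in roX-KO males, against 15.4% ± 1.2 in wild-type males (SD, n = 3 each). A share of 50% of all counts lay in 382, 345 and 379 genes in roX-KO males, against 302, 270 and 281 genes in wild-type males. The groups did not overlap in either measure (exact two-sided permutation p = 0.1 for each). Both measures include the mitochondrial genome, whose own share was 7.13% in roX-KO males, against 10.7% in wild-type males. Its part in them was not tested.

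The 10 unlisted genes with the highest level per kilobase mostly encode translation factors, energy enzymes and muscle proteins, and none rose. Of these 6 fell and 4 did not pass the test. sesB, the X-linked mitochondrial ADP/ATP translocase, had 2363, 2514 and 2225 CPM in roX-KO males, against 4320.3, 4985 and 4517 CPM in wild-type males (log2 fold change -0.96 ± 0.09 SE; adjusted p = 1.94e-06, edgeR). The autosomal genes that fell were Mp20, a calponin-family muscle protein (-0.65), tsr, the actin-severing cofilin (-0.51), awd, a nucleoside diphosphate kinase (-0.42), blw, the alpha subunit of ATP synthase (-0.36), and eEF5 (-0.26), whose call ended in 3 of 16 alternatives. eEF1alpha1 (0.14), eEF2 (0.09), eEF1gamma (-0.04) and alphaTub84B (-0.15) did not pass. Under total counts the calls of awd, blw and eEF5 ended, alphaTub84B and eEF1gamma changed sign, and eEF1alpha1, eEF2 and eEF1gamma were called higher.

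Fold changes also differed by gene length, by more than across quartiles of CPM. That order does not hold for level per kilobase of exon, where the arm difference given above was -0.46. Quartiles by genomic span, from first to last base of the gene, covered 62 to 1405, 1406 to 2572, 2573 to 6176 and 6177 to 396036 base pairs. On the arms, 904 of 2433 genes of the shortest quartile were lower in roX-KO males and 488 were higher (median log2 fold change -0.10). In the longest arm quartile 1155 of 2210 genes were higher and 375 lower (median 0.28), with 0.02 and 0.13 between. On the X, 224 of 331 genes of the shortest quartile were lower and 26 higher (median -0.65), followed by medians of -0.54 and -0.42. In the longest X quartile only 189 of 517 were lower and 136 higher (median -0.07). Under total counts the shortest arm quartile turned to 882 higher and 649 lower (median 0.13), and the longest X quartile to 211 higher and 126 lower (median 0.16), with the order of the quartiles kept.

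For each library the median deviation of the shortest quartile was subtracted from that of the longest. On the arms it was 0.18, 0.22 and 0.18 in roX-KO males, against -0.07, -0.48 and -0.07 in wild-type males, so the groups differed by 0.40 (exact two-sided permutation p = 0.1). On the X it was 0.26, 0.29 and 0.27 in roX-KO males, against -0.16, -0.61 and -0.16 in wild-type males, so the groups differed by 0.58 (exact permutation p = 0.1). The groups did not overlap, but wild-type male 2 lay far below the other wild-type males on both. Without it the difference was 0.26 on the arms and 0.43 on the X, where 3 libraries against 2 cannot give a p under 0.05 in an exact permutation test.

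Calls by length without wild-type male 2 kept their direction. In the longest arm quartile 1135 genes were higher and 505 lower (median 0.21), and in the shortest 578 were higher and 864 lower (median -0.06). In the longest X quartile 128 genes were higher and 257 lower (median -0.16), and in the shortest 31 were higher and 211 lower (median -0.58). The same measure varied within another group of the series too. Set against the mean of the 6 male libraries, the arm value was 0.21, 0.15 and -1.06 in the 3 wild-type female libraries. Libraries of 1 genotype thus differed in it by more than the groups of males did. The cause of that spread, and its part in the difference between the groups, was not tested.

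**Figure D3:**
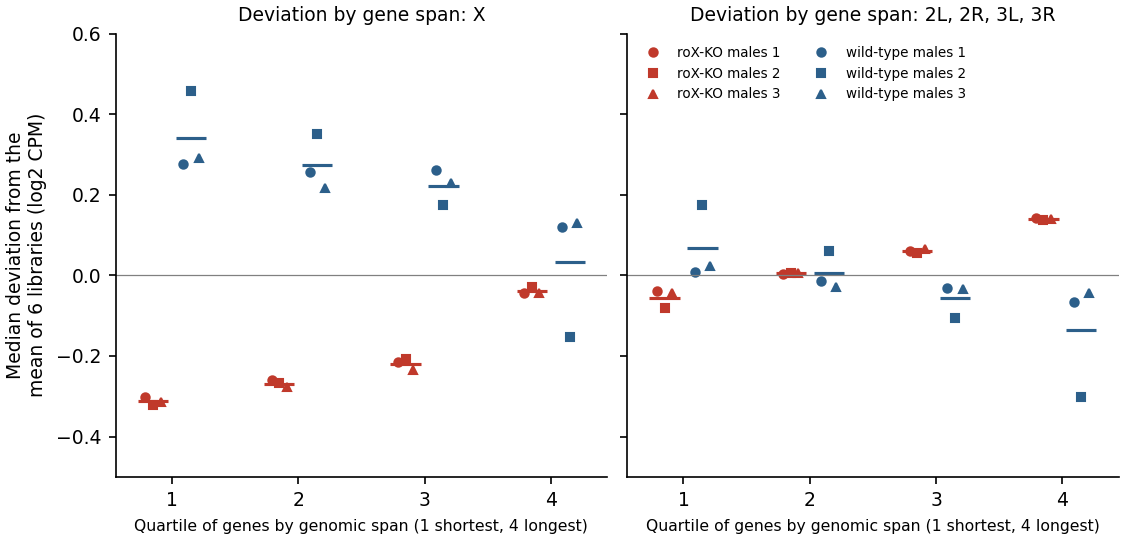
Median deviation of each library from the mean of the 6 male libraries (log2 CPM, y axis) in quartiles of genes by genomic span (x axis, 1 shortest), for the X (left) and the large arms (right); each point is 1 library and each bar the mean of 3. roX-KO libraries climb with span and lie close together, while wild-type male 2, drawn as a square, falls more steeply than the other wild-type males and lies below the roX-KO libraries in the longest X quartile.

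The X shift itself was smaller among long genes. Relative to arm genes of the same span quartile it was -0.53, -0.54, -0.56 and -0.35, which put the X 30.8%, 31.3%, 32.1% and 21.3% lower (exact two-sided permutation p = 0.1 in each). The longest quartile differed from the shortest by 0.18, with 0.08 ± 0.01 in roX-KO males, against -0.10 ± 0.03 in wild-type males (SD, n = 3 each). This contrast was added after the data were seen, and it was 0.17 without wild-type male 2. With exon length in place of span it was 0.09, and with no filter on low counts it turned to -0.077.

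The extremes of span showed the same order. Among genes of at least 100 kb, 44 of 58 on the arms were higher in roX-KO males and 4 were lower, with a median log2 fold change of 0.55. On the X 10 of 18 such genes were higher and 3 lower (median 0.32). Among genes under 1 kb, 257 of 1370 on the arms were higher and 553 lower (median -0.17), and 18 of 184 on the X were higher and 119 lower (median -0.66). Without wild-type male 2 the arm genes of at least 100 kb had 42 higher and 5 lower (median 0.45) and those under 1 kb 294 higher and 527 lower (median -0.10). On the X the same library left out gave 10 higher and 3 lower (median 0.24) for the long genes, and 21 higher and 113 lower (median -0.64) for the short ones. As a description, Spearman's rho between log2 fold change and span was 0.25 over 9286 arm genes and 0.36 over 1751 X genes. With exon length it was 0.28 on the arms and 0.36 on the X. With level per kilobase of exon it was -0.30 on the arms and -0.34 on the X, so length and that level were not separated. Without wild-type male 2 the values were 0.18 and 0.29 with span, and 0.20 and 0.28 with exon length. All these genes share the same 6 libraries, so no p is given.

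Length and level by CPM were then crossed, which does not hold the level per kilobase fixed. At the lowest level the median log2 fold change of arm genes was 0.05 in the shortest and 0.52 in the longest quartile. At the highest level it was -0.19 and 0.12. X genes that were both short and in level quartile 3 had a median of -0.94, and 50 of 57 were lower. X genes that were long and in the lowest level quartile had a median of 0.34, with 32 of 81 higher and 15 lower. At each level the longest quartile stood above the shortest on both the X and the arms. On the X at the highest level the 3 shorter quartiles lay together, at -0.63, -0.62 and -0.66, with the longest at -0.23. Without wild-type male 2 the longest quartile still stood above the shortest at each level. The X medians then ran from -0.88 to 0.28 and the arm medians from -0.19 to 0.46, and the longest arm genes at the highest level were at 0.05.

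**Figure D4:**
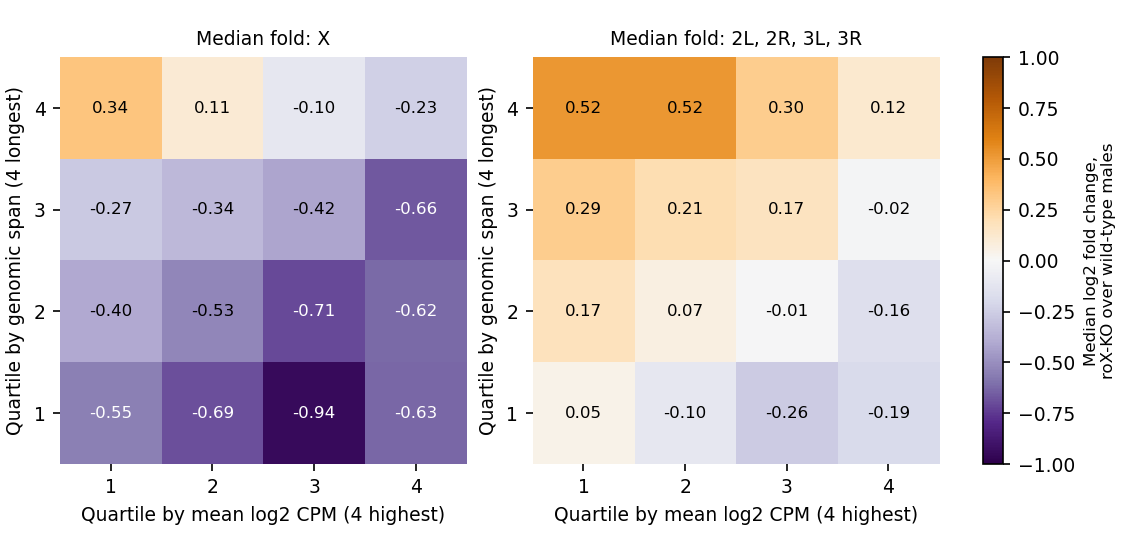
Median log2 fold change (roX-KO over wild-type males, colour and printed value) of genes in each combination of quartile by mean log2 CPM (x axis) and quartile by genomic span (y axis), for the X (left) and the large arms (right). The longest quartile is above the shortest in every column, over a range of -0.94 to 0.34 on the X and -0.26 to 0.52 on the arms.

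Of the 8 unlisted genes with the longest span, 7 rose and none fell (median log2 fold change 0.83). Wild-type male 2 was the lowest wild-type library for all 8, and without it 7 rose and none fell, with a median of 0.71. DIP-lambda (2R), an immunoglobulin-domain partner of Dpr proteins on neurons, had 8.61, 8.47 and 8.69 CPM in roX-KO males and 3.943, 3.014 and 3.498 CPM in wild-type males (log2 fold change 1.30 ± 0.13 SE; adjusted p = 2.53e-06, edgeR). Ten-a, an X-linked teneurin that matches synaptic partners, had 22.62, 23.01 and 19.11 CPM in roX-KO males and 11.2, 8.67 and 12.8 CPM in wild-type males (0.99 ± 0.13; adjusted p = 3.12e-05, edgeR). Neither gene overlapped between the groups. The RNA-binding proteins bru3 (1.06), Rbp6 of the Musashi family (1.06) and heph, the polypyrimidine tract-binding protein (0.67), rose as well, as did l(3)80Fg (0.58). kirre, an X-linked adhesion protein of muscle founder cells, rose by 0.54, and the X-linked innexin shakB, at 0.16, did not pass except under total counts.

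Of the 8 unlisted protein-coding genes with the shortest span and a mean log2 CPM of at least 4, 5 fell and none rose (median log2 fold change -0.50). Wild-type male 2 was the highest wild-type library for all 8, and without it 5 fell and none rose, with a median of -0.32. NdufV3, an X-linked subunit of respiratory complex I, had 24.79, 25.56 and 24.98 CPM in roX-KO males and 45.7, 57.3 and 48.2 CPM in wild-type males (log2 fold change -1.005 ± 0.092 SE; adjusted p = 1.3e-06, edgeR). ox, a subunit of the cytochrome bc1 complex on 2R, had 80.3, 73.9 and 88.3 CPM in roX-KO males, against 126, 167 and 154 CPM in wild-type males (-0.88 ± 0.10; adjusted p = 1.27e-05, edgeR). The groups did not overlap for either gene. IM33 (-0.82), Peritrophin-15a of the gut lining (-0.56) and Nop10 of the H/ACA ribonucleoproteins (-0.44) also fell. The value of Nop10 was -0.23 without wild-type male 2 and its call ended under total counts, and 31.6% of its exon bases are covered by an opposite-strand gene, which makes its counts uncertain. SmF of the spliceosomal Sm ring (-0.25), kud (-0.08) and Sem1 of the proteasome lid (0.02) did not pass, and without wild-type male 2 kud was at 0.12 and Sem1 at 0.09.

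Genes with and without introns differed less than long and short genes did. On the arms 253 of 860 protein-coding genes without an intron were higher in roX-KO males and 286 were lower (median log2 fold change 0.00), and 2771 of 7864 with introns were higher and 2138 lower (median 0.08). Per library, the deviation of intronless minus intron-bearing arm genes differed between the groups by -0.09 (exact two-sided permutation p = 0.1), and by -0.03 without wild-type male 2. On the X the same value was -0.05 (exact permutation p = 0.3). Intronless arm genes are shorter, with a median span of 1121.5 base pairs, against 2954.5 with introns. Within the shortest span quartile the order turned, with arm medians of -0.08 without and -0.19 with introns. The X medians there were -0.62 without and -0.74 with introns. Noncoding RNA genes of the arms were higher in 177 and lower in 92 of 522 cases (median 0.20), and those of the X in 16 and 44 of 95.

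The strongest single changes were then read by a rule: called genes in no preset list, with a symbol, a mean log2 CPM of at least 4 and groups that did not overlap. On the arms 1123 genes met it upward and 716 downward, and on the X 62 upward and 342 downward. The 6 largest in each direction were taken from each.

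Among the genes so taken, falls on the arms were the largest in size. Tb (3R 26656440-26657531), a Tweedle protein of the larval cuticle, had 4.43, 4.18 and 5.57 CPM in roX-KO males and 108, 116 and 96.6 CPM in wild-type males (log2 fold change -4.49 ± 0.12 SE; adjusted p = 1.51e-11, edgeR). Osi2, of the Osiris family expressed in cuticle-forming epithelia, had 9.48, 10.9 and 11.4 CPM in roX-KO males and 87.7, 102 and 91.4 CPM in wild-type males (-3.14 ± 0.10; adjusted p = 5.1e-11, edgeR). Obp56d, an odorant-binding protein, had 16.9, 15.8 and 17.1 CPM in roX-KO males, against 135, 159 and 138 CPM in wild-type males (-3.12 ± 0.09; adjusted p = 3.34e-11, edgeR). In each the lowest wild-type library lay far above every roX-KO library. Alp9, an alkaline phosphatase (-2.45), EbpIII (-2.40) and l(3)mbn (-2.40) followed, the last with 48.6% of its exons under a gene on the other strand and so uncertain.

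Rises on the arms were smaller but as even among libraries. nw (2R 17502354-17508645), a C-type lectin-like protein, had 295, 316 and 291 CPM in roX-KO males and 93.1, 93.3 and 90.3 CPM in wild-type males (1.70 ± 0.07 SE; adjusted p = 7.17e-10, edgeR). unc80, a part of the NALCN sodium leak channel complex of neurons, had 103, 105 and 95.5 CPM in roX-KO males and 36.3, 26.9 and 35.1 CPM in wild-type males (1.63 ± 0.11; adjusted p = 5.46e-08, edgeR). InR, the insulin receptor, had 99.5, 114 and 97.4 CPM in roX-KO males and 37.5, 31.4 and 43.9 CPM in wild-type males (1.46 ± 0.11; adjusted p = 2.66e-07, edgeR). Wild-type male 2 was the lowest library for unc80, InR and ich. These genes, nw and ana all span over 6177 base pairs and so lie in the longest quartile. Qsox2, a sulfhydryl oxidase (1.64), ana, a glial glycoprotein that holds neuroblasts quiescent (1.60), and ich, a zinc finger factor of the tracheal matrix (1.37), completed the set.

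Falls on the X were taken as the largest that met the rule, so they exceed the general X shift by choice. Peritrophin-A, a chitin-binding protein of the gut lining, had 10.3, 13.9 and 10.7 CPM in roX-KO males and 60.8, 76.0 and 58.8 CPM in wild-type males (log2 fold change -2.49 ± 0.13 SE; adjusted p = 7.37e-09, edgeR). kat80, the regulatory subunit of the microtubule-severing katanin, had 11.1, 11.8 and 12.3 CPM in roX-KO males and 42.7, 40.0 and 42.3 CPM in wild-type males (-1.83 ± 0.08; adjusted p = 1.87e-09, edgeR). The mitochondrial import chaperone Tim9a (-1.52) and SmydA-8, a SET and MYND domain protein (-1.51), fell as well. Had1 (-1.87) and ssp7 (-1.62) fell in counts, but 98.8% and 81.8% of their exons are covered by an opposite-strand gene, which leaves both uncertain.

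Some X genes rose against the direction of their chromosome. wus, a J-domain protein of endocytosis in the airways, had 25.4, 27.6 and 27.9 CPM in roX-KO males and 13.4, 14.7 and 13.4 CPM in wild-type males (0.96 ± 0.09 SE; adjusted p = 1.09e-06, edgeR). fne, an RNA-binding protein of the ELAV family in neurons, had 49.4, 58.0 and 56.6 CPM in roX-KO males and 31.0, 25.8 and 33.0 CPM in wild-type males (0.87 ± 0.10; adjusted p = 1.03e-05, edgeR). OtopLc, of the otopetrin proton channels (0.90), Pgcl (0.87), the axon guidance netrin NetB (0.86) and the Mint-family adaptor X11Lbeta (0.85) also rose. OtopLc, fne, NetB and X11Lbeta lie in the longest quartile of span, and wild-type male 2 was the lowest library for each of them. Pgcl has 1310 base pairs. The calls of these 24 genes held under each alternative scaling, filter and test and without each library in turn.

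**Figure D5:**
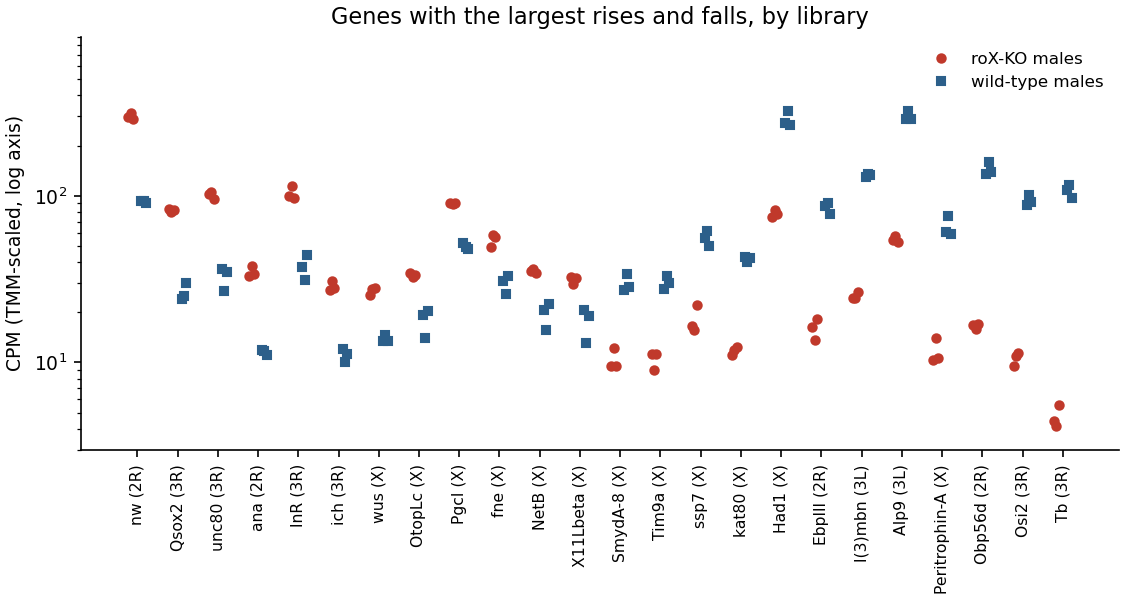
Level of the 24 genes with the largest rises and falls in each library (CPM after TMM scaling, log axis; roX-KO males as red circles left of wild-type males as blue squares), ordered from the largest rise (nw, 1.70) to the largest fall (Tb, -4.49). The naming rule required groups that did not overlap, so the separation of the libraries in all 24 genes was set by the choice.

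Gene families defined by symbol were read against the background of 31.4% higher and 32.1% lower. The 3 detoxification families below and the roX genes are in the preset lists, and the other families are not. Of 8 subunits and chaperones of mitochondrial import, 7 were lower in roX-KO males and none higher (median log2 fold change -0.69), with 3 of the 8 on the X. Of 33 aminoacyl-tRNA synthetases, which load tRNAs, 15 were lower and none higher (median -0.19), led by the X-linked LysRS with 102, 102 and 118 CPM in roX-KO males, against 239.9, 244 and 216 CPM in wild-type males (-1.12). Of 36 translation initiation factors 8 were higher and 15 lower (median -0.10), from eIF3m (0.50) to eIF4E3 (-2.04). Under total counts the synthetases came to 6 higher and 6 lower (median 0.04) and the initiation factors to 16 higher and 9 lower (median 0.13), while mitochondrial import kept 5 lower and none higher.

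Transcription machinery split under TMM scaling. Of 24 Mediator subunits, which bridge regulators and RNA polymerase II, 10 were higher in roX-KO males and 2 lower (median 0.20). MED31 was highest (0.60) and the X-linked MED22 lowest (-0.72). Under total counts 18 Mediator subunits were higher and 1 lower (median 0.43). Of 11 RNA polymerase II subunits 1 was higher, Polr2B (0.22), and 5 were lower (median -0.27), but under total counts 2 were higher and none lower. Leaving out wild-type male 2 gave a median of -0.13, with 1 higher and 4 lower. The call of Polr2B ended in 5 of 16 alternatives. The X-linked Polr2A had 77.5, 82.4 and 77.7 CPM in roX-KO males and 116, 77.0 and 116 CPM in wild-type males. Its groups overlapped through wild-type male 2, and its call (-0.38) ended in 5 of 16 alternatives.

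The secretory families showed few calls: of 19 Sec translocon and coat proteins 4 were higher and 3 lower (median 0.06), and of 13 signal peptidase and SRP proteins 1 was higher and 3 lower (median 0.03). The single rise, Spase12 (0.54), is uncertain because an opposite-strand gene covers all its exons. Under total counts the Sec proteins came to 14 higher and 3 lower, and the SRP group to 7 higher and 2 lower. The SRP group had 5 higher and 3 lower when wild-type male 2 was left out. Of 4 septins, filament proteins of the cell cortex, Septin2 was higher (0.21) and Septin1 lower (-0.35), and both calls depended on the scaling.

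The 3 detoxification families had calls in both directions, as did all genes, and are given for the single genes that stood far from the rest. Of 73 cytochrome P450 genes 21 were higher in roX-KO males and 29 lower (median log2 fold change -0.13). Cyp6a17 (2R 14873953-14875739) had 0.361, 0.434 and 0.409 CPM in roX-KO males and 33.1, 34.6 and 34.0 CPM in wild-type males (-6.38 ± 0.14 SE). In counts it had 7, 8 and 8 in roX-KO males, against 554, 562 and 554 in wild-type males. Cyp6a17 passes the filter only through wild-type males, so its value is a description only. Cyp4e3 (2L) had 36.3, 38.5 and 35.9 CPM in roX-KO males and 3.53, 3.14 and 3.01 CPM in wild-type males (3.51 ± 0.10; adjusted p = 3.69e-11, edgeR). Both differed between the groups by far more than among replicates, but the spread of replicates does not cover strain background. Of 35 glutathione S-transferases 9 were higher and 16 lower (median -0.26), from GstE1 (0.66) to GstD5 (-1.64). Of 31 UDP-glycosyltransferases 10 were higher and 9 lower (median -0.13), from Ugt37A1 (2.35) to Ugt37C1 (-1.16). Ugt37A1 had 25, 28 and 26 counts in roX-KO males, against 5, 5 and 3 in wild-type males. It passes the filter partly through the group where it is high, so its value is a description only. Under total counts the P450 genes came to 28 higher and 21 lower (median 0.10), the transferases GST to 12 and 9 (median -0.02) and UGT to 13 and 5 (median 0.10).

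Epithelial and sensory families differed among themselves. Of 14 Osiris genes 9 were lower in roX-KO males and 2 higher (median -0.59), and without wild-type male 2 these were 10 and none. The rise of Osi16 (0.72) rested on 10 to 27 counts a library. Of 9 mucins 5 were higher and 4 lower (median 0.32). Muc91C had 2.16, 2.99 and 2.45 CPM in roX-KO males and 56.0, 61.5 and 54.0 CPM in wild-type males (-4.50 ± 0.12 SE; adjusted p = 1.47e-11, edgeR), and the rise of Muc14A (X) rested on 11 to 15 counts in roX-KO libraries and 0 to 2 in wild-type libraries. Of 26 odorant-binding proteins 9 were lower and 2 higher (median -0.18), from Obp56b (0.86) to Obp99b, which had 0 to 3 counts in roX-KO males, against 12 to 15 in wild-type males. Under total counts the odorant-binding proteins came to 7 higher and 8 lower (median 0.05). Of 31 tetraspanins 9 were higher and 8 lower (median 0.09, and 18 and 5 under total counts), from Tsp68C (1.63) to Tsp42Ek (-0.95). Tsp68C had 11 to 20 counts in roX-KO males, against 3 to 6 in wild-type males. Obp99b, Muc14A and Tsp68C pass the filter partly through the group where they are high, so their values are descriptions only.

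Receptor genes were near the limit of detection. Of 9 ionotropic receptors 7 were higher in roX-KO males and 1 lower (median log2 fold change 0.69), or 6 and 2 without wild-type male 2. Ir41a had 28, 23 and 28 counts in roX-KO males, against 6, 12 and 5 in wild-type males (1.55). The fall of Ir93a (-0.63) was lost with DESeq2 and under total counts. Of 8 gustatory receptors 3 were higher and 2 lower (median 0.20), from Gr33a (2.41) to Gr8a (-1.75), with a median of 0.06 without wild-type male 2. Of 6 odorant receptors 1 was higher and 1 lower (median -0.13), and both, Or45b (1.83) and Or88a (-0.54), lie mostly under genes on the other strand. The call of Or88a ended in 8 of 15 alternatives, and without wild-type male 2 the family had 2 higher and none lower (median 0.02). Of 15 pickpocket channels 3 were higher and 2 lower (median 0.14, and 0.06 without wild-type male 2), with ppk3 (1.68) and ppk17 (-0.53) at the ends. ppk3 had 11 to 27 counts in roX-KO libraries, against 1 to 8 in wild-type libraries, and its call ended without roX-KO male 1 (1.36). A gene at this level passes the filter partly through the group where it is high, so these counts are descriptions only.

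Long noncoding RNAs had a median above 0, and snoRNAs a median below 0 that turned under total counts. Of 200 genes annotated as long noncoding RNAs 80 were higher in roX-KO males and 28 lower (median 0.36), the lower ones including roX1 and roX2. Of 415 antisense RNAs 119 were higher and 105 lower (median 0.12), both smaller shares than the 31.4% and 32.1% of all genes tested. With factors from the arms the calls became 103 and 113 (median 0.06), and without wild-type male 2 the median was 0.06. asRNA:CR45663 (3L) had 9, 6 and 6 counts in roX-KO males, against 413, 439 and 354 in wild-type males. It passes the filter only through wild-type males, so these counts are a description only. An opposite-strand gene covers 96.0% of its exons, which makes its counts uncertain. The strand setting of the counting is not given in the sources used here, so reads of an antisense RNA and of its partner gene may not be separable. Of 12 snoRNAs 3 were lower and none higher (median -0.16, and 0.07 under total counts), with snoRNA:U3:9B lowest (-2.33). This snoRNA had 3 to 6 counts in roX-KO males, against 16 to 27 in wild-type males, and passes the filter partly through wild-type males.

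The authors' deposited table for the same libraries gave the same order by length. It called 197 X genes higher and 1003 lower of 2022 with an adjusted p, and 2853 arm genes higher and 2406 lower of 10625. Among arm genes in the authors' deposited table, 1082 of 2267 in the longest span quartile were higher and 362 lower, and 412 of 3254 in the shortest were higher and 878 lower. On the X the longest quartile had 123 higher and 187 lower there.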

How the data were processed

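The authors deposited raw read counts per gene and library, and for the 6 male libraries a table with FPKM, a mean signal per gene, log2 fold changes, a test score and p-values, per the file headers. HISAT2 2.2.1, SAMtools 1.13, HTSeq 2.0.2, DESeq2 and the dm6 genome are named in the submitters' processing notes, with no role or setting. The labels' protocols describe Trizol extraction, oligo dT selection and paired-end reads from a DNBSEQ instrument. The sources used here give neither the counting strand nor the release of the annotation.

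Positions, spans and exon lengths came from an Ensembl annotation on dm6 coordinates, which matched 17556 of 17611 gene IDs and left 55 unmatched. Reads in no gene took 45.8 to 47.9% of each male library's total and stayed out of library sizes. Counts were filtered with filterByExpr (minimum count 10, minimum total 15), scaled by TMM and tested with edgeR 4.0.16 (quasi-likelihood, robust, R 4.3.3). Benjamini-Hochberg adjustment ran over all genes tested, and an adjusted p under 0.05 was called. CPM are TMM-scaled, with 2 as the prior count on the log2 scale. Fold changes in the text are log2 values from edgeR. Quartiles were cut over all genes tested. Shifts are differences of median deviations per library, compared by exact two-sided permutation. Floors cover counting error only. Scripts were tested on simulated counts with known changes.

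Members, gene lists, families and the naming rule (as stated beside each group, plus the largest called rise and fall of each family) were chosen with earlier results of these data known. The preset lists were rebuilt here from 20 symbol patterns and 563 symbols, of which 521 matched, so membership is incomplete. Genes of which 20% or more of the exons lie under a gene on the other strand are called uncertain. Replicate numbers gave no pairing: deviations of same-numbered libraries correlated at -0.013 to -0.009. Alternatives were DESeq2 1.42.0 and its size factors, total counts, factors from the arms, other filters, limma 3.58.1 on log2 of the deposited FPKM plus 0.1 or 1, a replicate block, and each library left out. Python 3.11.15 with pandas 2.3.3, SciPy 1.17.1 and matplotlib 3.10.9 served for tables and plots.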

Additional observations from a re-analysis of the deposited data

How the results depend on the processing

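Total counts in place of TMM moved the calls most: 5467 genes were higher in roX-KO males, 383 on the X and 5001 on the arms, with 1615 arm genes lower, and outside the preset lists 4983 were higher and 1982 lower. The other counts stayed within 1.5 times, including DESeq2 (3166 higher, 3455 lower) and each library left out (3024 to 3675 higher, 3223 to 3828 lower). With the replicate number as a block, 3447 genes were higher and 3516 lower, and no count moved by over 1.5 times. The X shift ranged from -0.48 to -0.39 over its alternatives. Its difference between the highest and lowest level quartile turned to 0.011 with a mean log2 CPM of at least 1 and to 0.0021 with a prior count of 0.5, and ranged from -0.037 to 0.014 with a library left out, and was -0.46 with no filter. Its difference between the longest and shortest quartile turned to -0.077 with no filter. The intronless difference on the X turned to 0.039 with no filter and ranged from -0.080 to 0.0022 with a library left out. With no filter the length difference on the X was 0.23, and the level difference on the arms -0.01. Named genes changed sign in 8 of their alternatives: Sem1 was -0.040 with factors from the arms and -0.083 to 0.16 with a library left out, alphaTub84B 0.083, eEF1gamma 0.19 and kud 0.15 under total counts, and kud 0.12 without wild-type male 2 (-0.21 to 0.12 over the libraries left out). Causes were not tested. Counts of a few reads limit the receptor families, low genes of other families and the low noncoding genes.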
